A study of Mus musculus with 16 samples.

Results

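Escherichia-Shigella, Staphylococcus, Jeotgalicoccus and Corynebacterium were followed by 16S amplicon counts in the colon of 16 mice. Every amplicon sequence variant (ASV, a distinct 16S sequence) whose deposited taxonomy carried one of these genus names was taken, which gave 12 of 1901 ASVs and 4 of 114 named genera. Escherichia-Shigella had 2 ASVs, Staphylococcus 4, Jeotgalicoccus 1 and Corynebacterium 5. Per the labels, the mice were wild type (WT) or had lost the receptor MERTK (MERTK-KO), both on a C57BL/6J background and kept specific pathogen free. From 8 to 10 weeks of age they drank sterile water for 7 days, either plain or with dextran sulfate sodium (DSS, 36 to 50 kDa) at 2.5% by weight per volume. The distal colon, 2 to 3 cm from the anus, was taken on day 8 and rinsed of faecal residue, and each of the 4 groups (WT, WT+DSS, MERTK-KO and MERTK-KO+DSS) held 4 mice. Genotype and treatment came from the sample titles only, because the genotype and treatment fields read the same for all mice. Whether the deletion was present in every cell, and whether the genotypes were littermates or shared cages, was not given in the sources used here, and 16S counts cannot check the genotype.

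Gut bacteria are mostly strict anaerobes, whereas these genera grow with oxygen. Escherichia-Shigella are Gram-negative facultative anaerobes of the order Enterobacterales, which are known to expand in the inflamed gut. Staphylococcus and its relative Jeotgalicoccus are Gram-positive cocci of skin, animals and dust, and Corynebacterium is a Gram-positive rod of skin and mucosa. DSS injures the colon epithelium, and MERTK is a macrophage receptor for the clearance of apoptotic cells. Oxygen tolerance was not measured, and the name rests on what is known of cultured strains.

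Each library held 96469 counts, so 1 count was the same share in each, and 3 counts, 0.00311%, was taken as the detection limit of a library. Counting limits and intervals cover counting error only, since amplicon reads without molecular identifiers are not independent molecules. The 4 genera were minor members, with 0.147% of all counts for Escherichia-Shigella, 0.135% for Staphylococcus, 0.0211% for Corynebacterium and 0.00641% for Jeotgalicoccus. A count was found in 15 mice for Escherichia-Shigella, 9 for Staphylococcus, 6 for Jeotgalicoccus and 5 for Corynebacterium. A share can rise because the genus grew or because other bacteria declined, and these counts cannot tell the possibilities apart. WT mouse 1 held 66.2% of the Staphylococcus, 57.9% of the Jeotgalicoccus and 65.3% of the Corynebacterium counts of the WT mice on water, so the fold changes, sums and likeness values below that rest on that group are also given without it, ASV bounds, sums and likeness after the data were seen.

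**Figure D1:**
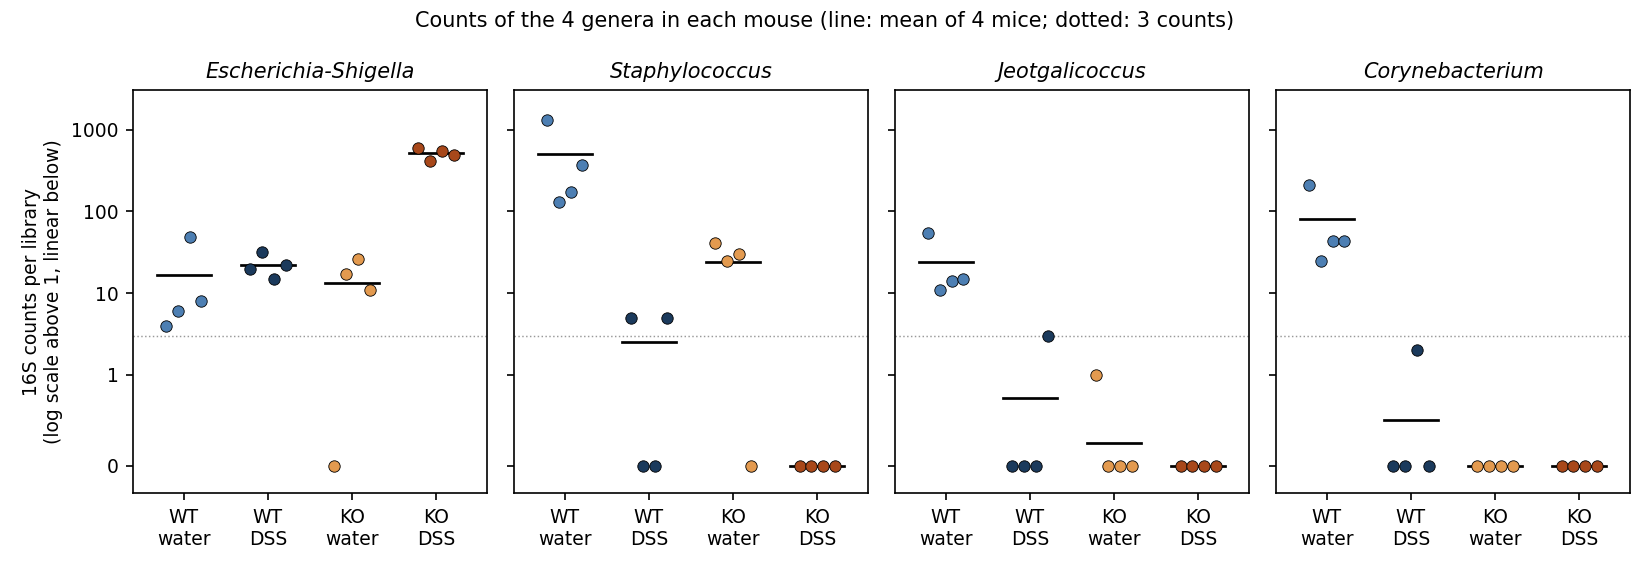
Counts of the 4 genera in each mouse, by group, on a logarithmic axis above 1 and a linear axis below. Points are mice, lines are means of 4 mice and the dotted line marks 3 counts; Escherichia-Shigella was at 412 to 600 in MERTK-KO mice on DSS and at 0 to 49 in every other mouse, while the other genera were highest in WT mice on water.

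Escherichia-Shigella rose with DSS in MERTK-KO mice, while Staphylococcus, Jeotgalicoccus and Corynebacterium were found mainly in WT mice on water. Of the 4 genera, 3 were called lower on DSS than on water in WT mice, beside 25 of 122 genus-level groups (20.5%), by edgeR's quasi-likelihood test at an adjusted p of 0.05. The same 3 were called lower in MERTK-KO than in WT mice on water, beside 32 of all groups (26.2%), and these comparisons share the WT mice on water. Jeotgalicoccus, with a count in 2 mice outside the WT group on water, and Corynebacterium, with 1, passed the filter on low counts only through that group, so a difference from it was built into their being tested. With no filter the adjusted p in these comparisons was 0.0178 and 0.00965 for Jeotgalicoccus and 0.00383 and 0.00155 for Corynebacterium (edgeR). The median log2 fold change over all 122 groups was -0.28 and -0.15 in these comparisons. With DSS in MERTK-KO mice, Escherichia-Shigella was called higher, beside 21 of all groups (17.2%), and Staphylococcus lower, beside 19 (15.6%). Between the genotypes on DSS, Escherichia-Shigella was called higher, beside 10 of all groups (8.20%).

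Groups of mice did not overlap for the 3 Gram-positive genera in the first 2 comparisons, beside 28 (23.0%) and 30 (24.6%) of all groups that were lower without overlap. The exact two-sided permutation test of shares gave p = 0.0286 for each of them, 0.0775 and 0.0758 after adjustment over the 122 groups. Jeotgalicoccus and Corynebacterium passed the filter only through the WT mice on water. A difference from that group was thus built in for these genera, and their lack of overlap is a description only. For Escherichia-Shigella the groups did not overlap with DSS in MERTK-KO mice or between the genotypes on DSS, beside 20 (16.4%) and 17 (13.9%) of all groups that were higher without overlap. The exact permutation p was again 0.0286 in both, the smallest that 4 against 4 mice allow, and 0.106 and 0.112 after adjustment. No comparison of this test could pass unless at least 70 groups reached that smallest p.

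**Figure D2:**
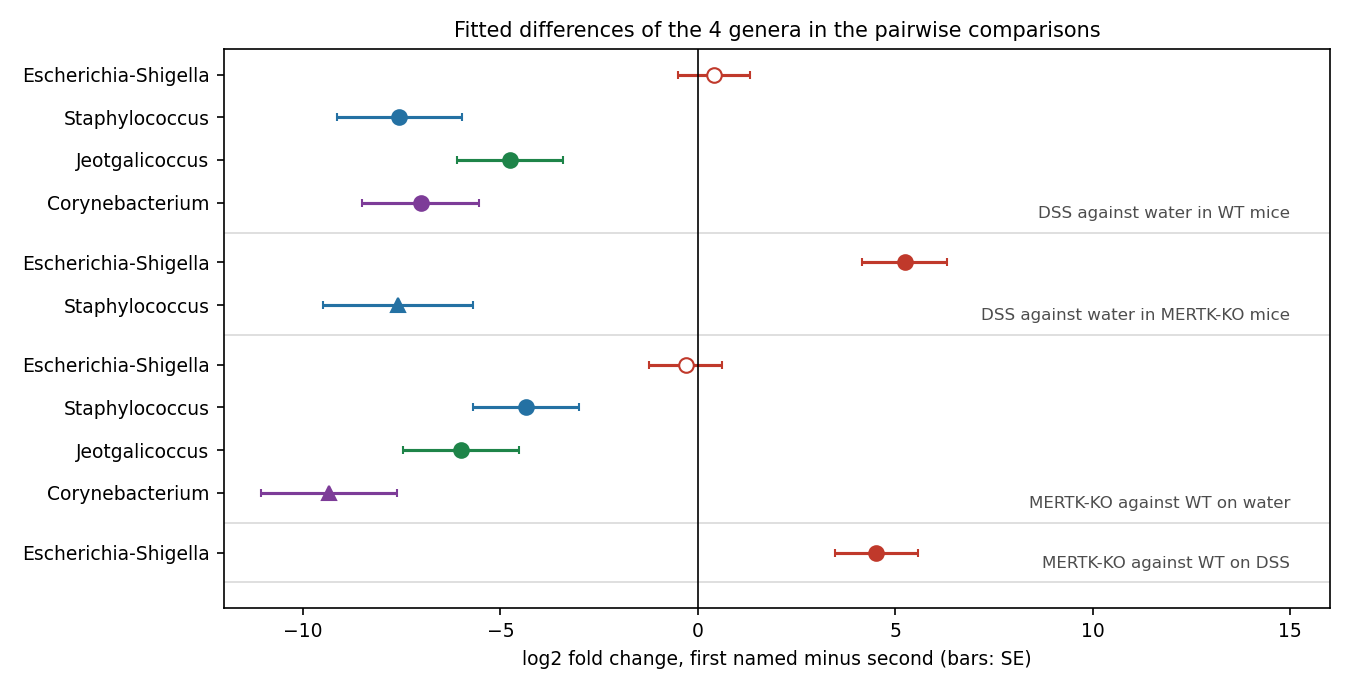
Log2 fold changes of the genera with their standard errors (edgeR, n = 4 mice per group) in the 4 pairwise comparisons. Filled points passed the adjusted p threshold of 0.05, and a genus with both group means at or under 3 counts is left out. Triangles mark fitted values with a group at 0, whose size depends on the model. Jeotgalicoccus and Corynebacterium passed the filter only through the WT mice on water, so a difference from them was built into their points.

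Escherichia-Shigella was high in 1 group. The MERTK-KO mice on DSS had 600, 412, 550 and 491 counts, and together held 90.7% of all counts of the genus. On water, the MERTK-KO mice had 0, 17, 26 and 11 counts and the WT mice 4, 6, 49 and 8, and the WT mice on DSS had 20, 32, 15 and 22. The lowest mouse of the MERTK-KO+DSS group thus lay above the highest of all other mice, and the 3 other groups overlapped one another. In MERTK-KO mice the mean share was 0.014% ± 0.0113 (SD, n = 4) on water and 0.532% ± 0.0838 on DSS, a rise of 38.0-fold.

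In WT mice the share was 0.0174% ± 0.0224 on water and 0.0231% ± 0.0074 on DSS, which was 1.33-fold higher, and edgeR's quasi-likelihood test found no difference past the threshold (log2 fold change 0.41, SE 0.92, adjusted p = 0.771). That ratio was 3.71-fold without WT mouse 3, which held 49 of the 67 counts on water. On DSS the genus was 23.1-fold higher in MERTK-KO than in WT mice (log2 fold change 4.52, SE 1.04, edgeR adjusted p = 0.00475). On water the mean was 1.24-fold lower in MERTK-KO than in WT mice, within the spread of both groups (log2 fold change -0.31, SE 0.93, edgeR adjusted p = 0.863), and the sign of this difference turned without WT mouse 3 or MERTK-KO mouse 1. The DSS contrast in MERTK-KO mice had a log2 fold change of 5.24 (SE 1.08, edgeR adjusted p = 0.00124).

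The DSS contrast of Escherichia-Shigella was larger in MERTK-KO than in WT mice by 4.83 on the log2 scale (SE 1.36, edgeR interaction, adjusted p = 0.0291). Of 122 genus-level groups tested, 11 (9.02%) passed this interaction test. Its adjusted p was 0.135 without WT mouse 3, 0.0524 without WT+DSS mouse 1, 0.0591 without WT+DSS mouse 3 and 0.0549 without MERTK-KO+DSS mouse 1, with the difference at 3.37 to 4.78 in these fits. It was 0.0714 with counts under 5 set to 0 and 0.0513 by limma on centred log-ratios with a pseudocount of 0.5.

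Both Escherichia-Shigella ASVs were read separately, an ASV being no strain since a bacterial genome can carry several copies of the 16S gene. ASV156 held 93.2% of the genus' counts. In MERTK-KO mice on DSS its counts were 554, 382, 510 and 452, and in the other mice they were those of the genus. ASV704 had 46, 30, 40 and 39 counts in these same 4 mice and 0 in the 12 others. ASV156 was 35.2-fold higher on DSS than on water in MERTK-KO mice (edgeR over 1056 ASVs, adjusted p = 0.0109) and 21.3-fold higher than in WT mice on DSS (adjusted p = 0.0115). ASV704 was at least 12.9-fold higher in both comparisons, taking 3 counts per library as the limit, and since it passed the filter only through the MERTK-KO mice on DSS, no test of it is given. For single ASVs the background of this edgeR test was 13.4% called for DSS in MERTK-KO mice and 37.7% for MERTK-KO against WT on DSS. The interaction of ASV156 was 4.71 on the log2 scale (SE 1.51) and did not pass (edgeR adjusted p = 0.0822, with 5.59% of ASVs called).

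The ratio of the ASVs was nearly constant among the mice that carried both. ASV704 made up 7.67%, 7.28%, 7.27% and 7.94% of the genus in the 4 MERTK-KO mice on DSS, and 7.55% when they were pooled (exact Clopper-Pearson 95% interval 6.44% to 8.78%). In the 12 other mice it was 0 of 210 counts, which allows a share of up to 1.43% (3 counts), with an exact 95% upper bound of 1.74%. That bound lies under the interval of the MERTK-KO+DSS mice when the 12 are pooled. Pooling takes the counts of separate libraries as independent draws, so it cannot show that the ratio differed between groups of mice. Within single mice the depth could not show a difference, since WT mouse 3, with 0 of 49, had an upper bound of 7.25%, inside that interval, and the others had higher ones.

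**Figure D3:**
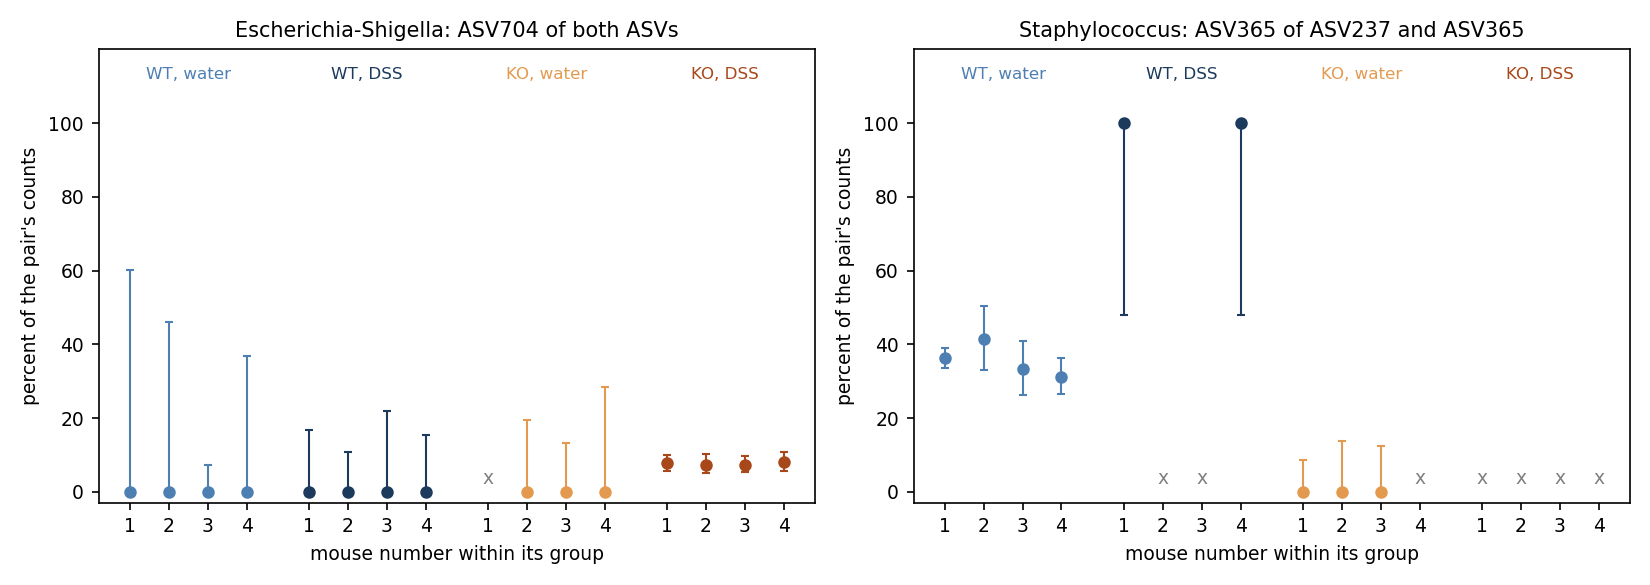
Share of 1 ASV in the counts of a pair, by mouse, for Escherichia-Shigella (left) and Staphylococcus (right). Points are mice with exact 95% intervals and x marks mice without a count of either ASV; ASV704 was at 7.27% to 7.94% in MERTK-KO mice on DSS, and ASV365 at 31.2% to 41.5% in WT mice on water and 0% in MERTK-KO mice on water.

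The levels of Escherichia-Shigella were even within the MERTK-KO+DSS group. The coefficient of variation over the 4 mice was 15.8%, and 17 other genus-level groups with a mean share within 2-fold of it had 20.5% to 136% in these mice, with a median of 61.9%. In WT mice on water it was 129%. By mean share the genus ranked 26 of 97 genus-level groups with a count in MERTK-KO mice on DSS, 80 of 118 in WT and 68 of 110 in WT+DSS, and 69 of 107 in MERTK-KO mice on water.

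The genus was nearly the sole source of counts of its order. Enterobacterales held 1 other ASV, with 5 counts in a single MERTK-KO mouse on water, and none of 8 further Enterobacterales genera looked for, among them Klebsiella, Citrobacter and Proteus, was listed. Escherichia-Shigella made up 87.8% of the counts of its class Gammaproteobacteria in MERTK-KO mice on DSS, against 4.96% in WT, 3.53% in WT+DSS and 4.49% in MERTK-KO mice on water, each pooled over 4 mice. By mouse the share was 83.6% to 93.5% in MERTK-KO+DSS, 1.32% to 12.0% in WT, 2.64% to 8.73% in WT+DSS and 0% to 20.0% in MERTK-KO mice on water, so only the first group stood apart. Without WT mouse 3 the pooled WT share was 1.91%. Its class as a whole had a mean share of 0.606% in MERTK-KO+DSS and 0.654% in WT+DSS mice. The genus made up 58.6% of the phylum Proteobacteria in MERTK-KO+DSS (45.2% to 79.4% by mouse) and 1.4% in WT+DSS mice, where the phylum had a larger mean share, 1.65% against 0.908%.

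**Figure D4:**
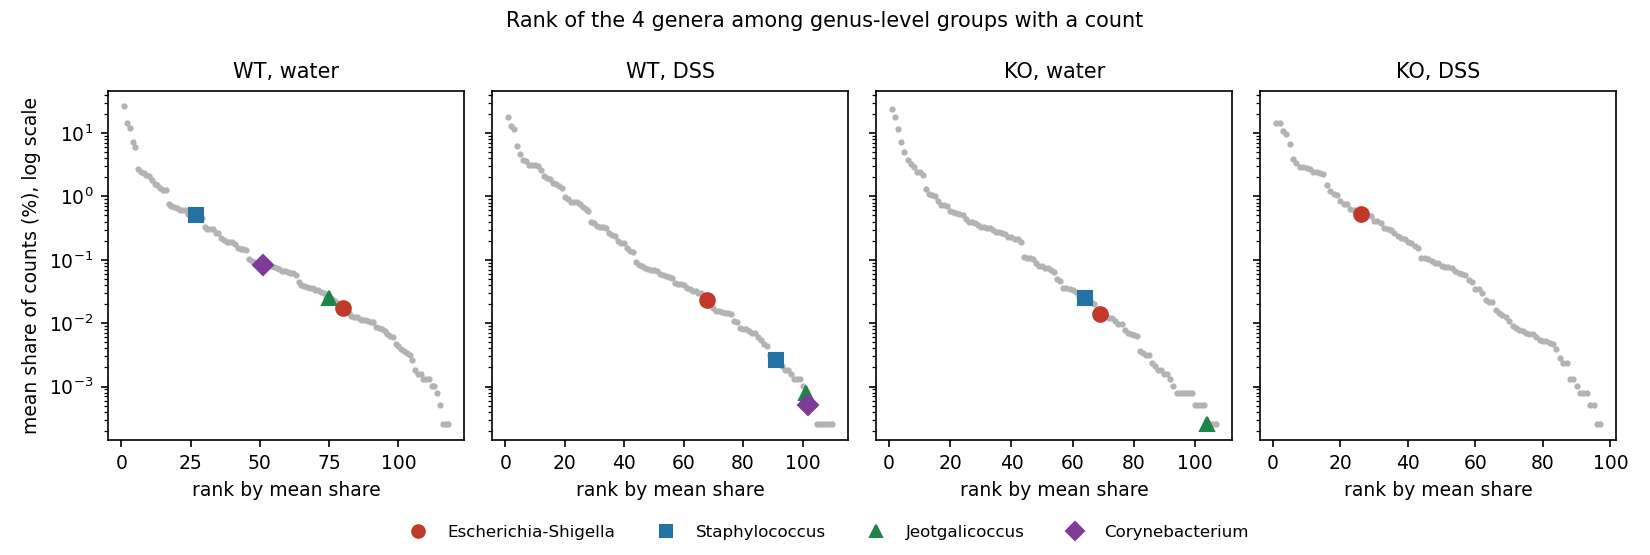
Mean share of counts of each genus-level group (logarithmic axis) against its rank, in each group of 4 mice; the 4 genera are marked and grey points are all others with a count. Escherichia-Shigella moved from rank 69 on water to rank 26 on DSS in MERTK-KO mice, and Staphylococcus stood at rank 27 in WT mice on water and was not found in MERTK-KO mice on DSS.

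Staphylococcus was highest in WT mice on water. WT mice on water had 1313, 130, 171 and 369 counts, MERTK-KO mice on water 41, 25, 30 and 0, WT mice on DSS 5, 0, 0 and 5, and MERTK-KO mice on DSS none. Every WT mouse on water was above every mouse of the other groups. The mean share in WT mice was 0.514% ± 0.575 (SD, n = 4) on water and 0.00259% ± 0.00299 on DSS, where the mean was under 3 counts, so no fold is given (log2 fold change -7.56, SE 1.58, edgeR adjusted p = 0.00301). Without WT mouse 1 the share on water was 0.231% and the adjusted p 0.00677.

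Staphylococcus in MERTK-KO mice had a share of 0.0249% ± 0.018 on water and was at least 8-fold lower on DSS (edgeR adjusted p = 0.00634). MERTK-KO mouse 4 had no count on water, so these groups overlapped, and the exact permutation test gave p = 0.143 (0.29 adjusted). On water the share was 20.7-fold lower in MERTK-KO than in WT mice (log2 fold change -4.36, SE 1.34, edgeR adjusted p = 0.0223). Without WT mouse 1 it was 9.31-fold lower and the adjusted p was 0.0716. On DSS both genotypes were at or under the limit of 3 counts, and no fold is given.

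Staphylococcus was made mainly of a pair of ASVs. ASV237, with no species name, had 828, 76, 114 and 252 counts in WT and 41, 25, 28 and 0 in MERTK-KO mice on water, and none in either group on DSS. ASV365, named Staphylococcus lentus, a species of farm and other animals, had 470, 54, 57 and 114 counts in WT mice on water and 5, 0, 0 and 5 in WT mice on DSS, and none in any MERTK-KO mouse. ASV365 was at least 57.9-fold lower in MERTK-KO than in WT mice on water (edgeR adjusted p = 0.00443, beside 52.8% of all ASVs called in this comparison), and at least 25-fold lower without WT mouse 1 (0.0108). It passed the filter only through the WT mice on water, so a difference from them was built into its being tested. ASV237 was 13.5-fold lower and did not pass (edgeR adjusted p = 0.0531, and 0.00768 to 0.118 over the alternatives). It was 6.27-fold lower without WT mouse 1 (0.181), and a difference between the ASVs was not tested.

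ASV365 took 36.2%, 41.5%, 33.3% and 31.2% of the counts of this pair in the 4 WT mice on water, and 35.4% when pooled (exact 95% interval 33.2% to 37.5%). In MERTK-KO mice on water it was 0 of 94, which allows up to 3.19% (3 counts), with an exact 95% upper bound of 3.85%. In WT mice on DSS all 10 counts were of ASV365 (exact 95% interval 69.2% to 100%). They were 5 in each of 2 mice, with an interval of 47.8% to 100% for each mouse. In MERTK-KO mice 1, 2 and 3 on water the single upper bounds were 8.6%, 13.7% and 12.3%. The pooled intervals take counts of separate libraries as independent draws, so they cannot show that the ratio differed between groups of mice. With DSS, ASV237 fell at least 106-fold in WT mice (edgeR adjusted p = 0.00779, beside 16.9% of ASVs called; at least 49.1-fold and 0.0228 without WT mouse 1) and at least 7.83-fold in MERTK-KO mice (adjusted p = 0.0285). ASV365, which was tested only through its counts in WT mice on water, fell in WT mice (edgeR log2 fold change -6.05, SE 1.77, adjusted p = 0.0421). The last 2 calls were at the edge, as the call of ASV237 in MERTK-KO mice was kept in only 2 of 8 fits that each left out 1 mouse (without MERTK-KO mouse 4 or MERTK-KO+DSS mouse 2; adjusted p 0.00943 to 0.0573 over the 8). That of ASV365 in WT mice was kept in 1 of 8 (without WT mouse 2; 0.0476 to 0.101), and it did not pass with TMM scaling (0.0715). ASV1235 had 15, 0, 0 and 2 counts in WT mice on water and 2 in MERTK-KO mouse 3, and did not pass in either comparison tested.

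**Figure D5:**
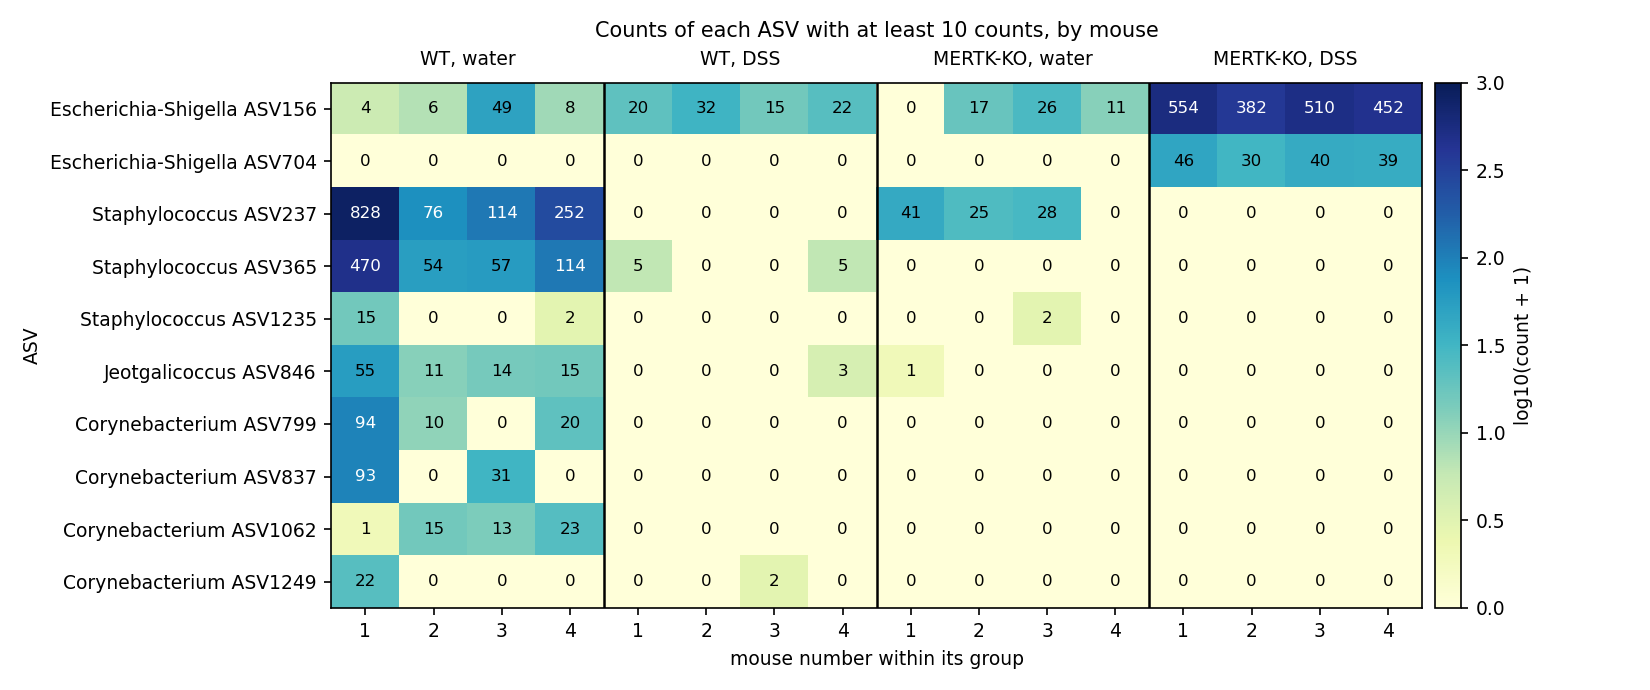
Counts of the 10 ASVs with at least 10 counts, in each of 16 mice, with the colour scale log10(count + 1). ASV704 had counts in MERTK-KO mice on DSS alone and ASV365 in WT mice alone. The Corynebacterium ASVs had counts in different mice of the WT group on water, and ASV1249 also had 2 in WT+DSS mouse 3.

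Jeotgalicoccus was a single ASV, ASV846. WT mice on water had 55, 11, 14 and 15 counts, WT mice on DSS 0, 0, 0 and 3, MERTK-KO mice on water 1, 0, 0 and 0, and MERTK-KO mice on DSS none. All WT mice on water were above all other mice. The mean share in WT mice on water was 0.0246% ± 0.0217 (SD, n = 4), and the means of the other groups were under 3 counts. At the genus level the difference passed for DSS in WT mice (log2 fold change -4.77, SE 1.34, edgeR adjusted p = 0.0135) and for MERTK-KO against WT on water (log2 fold change -5.99, SE 1.47, adjusted p = 0.00769). The same counts tested among single ASVs gave edgeR adjusted p = 0.0735 and 0.0199, the first 0.0355 without WT+DSS mouse 4 and 0.148 without WT mouse 1, the second 0.0365 without WT mouse 1. Without WT mouse 1 the share on water was 0.0138%, and the genus-level adjusted p was 0.0406 for DSS and 0.0176 for the genotype. Jeotgalicoccus and ASV846 passed the filter only through the WT mice on water, so a difference from them was built into these tests.

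Corynebacterium was found in WT mice alone. The WT mice on water had 211, 25, 44 and 43 counts, WT+DSS mouse 3 had 2, and the 11 other mice had none. The mean share in WT mice on water was 0.0837% ± 0.0905 (SD, n = 4). It was at least 26.9-fold lower in MERTK-KO mice on water (edgeR adjusted p = 0.00182), and at least 12.4-fold lower without WT mouse 1 (0.00329). The difference between DSS and water in WT mice passed as well (log2 fold change -7.02, SE 1.48, edgeR adjusted p = 0.00441, and 0.0089 without WT mouse 1). Corynebacterium passed the filter only through the WT mice on water, so a difference from them was built into both tests.

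The Corynebacterium ASVs differed from mouse to mouse within the WT group on water. ASV799 had 94, 10, 0 and 20 counts, ASV837 (Corynebacterium stationis) 93, 0, 31 and 0, and ASV1062 1, 15, 13 and 23. ASV1249, also named C. stationis, had 22 counts in mouse 1 and none in the others of this group, and it made up the 2 counts of WT+DSS mouse 3. The remaining ASVs, 1 of Corynebacterium and 1 of Staphylococcus, had 1 count each, both in WT mice on water. Mouse 1 thus held most of ASV799, ASV837 and ASV1249 but the fewest counts of ASV1062. ASV799 and ASV1062 had no count outside the WT mice on water and passed the filter only through them, so no test of them is given. In MERTK-KO mice on water, and in WT mice on DSS, they were at least 10.3-fold and at least 4.33-fold lower than in WT mice on water. These bounds were 3.33-fold and 5.67-fold without WT mouse 1.

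Jeotgalicoccus, Staphylococcus and Corynebacterium had similar distributions over the 16 mice. With each genus' shares scaled to sum to 1 and the smaller of both values added up over mice, likeness was 0.905 for Staphylococcus and Corynebacterium, 0.9 for Jeotgalicoccus and Corynebacterium and 0.864 for Staphylococcus and Jeotgalicoccus. Over 15 mice, with WT mouse 1 left out, these were 0.765, 0.878 and 0.758. Escherichia-Shigella had 0.0358 to 0.0534 with these 3 over all mice. Outside the 4 genera, the groups most like Escherichia-Shigella were UCG-005 (0.832), Prevotellaceae_UCG-001 (0.778) and Akkermansia (0.749), a genus known for using mucin, beside a median of 0.258 over 104 groups.

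Outside groups most like the Gram-positive genera were lower in likeness over the 16 mice. Staphylococcus was most like unclassified Hungateiclostridiaceae (0.606), Candidatus_Stoquefichus (0.563) and Prevotellaceae_NK3B31_group (0.551). Corynebacterium had the same 3, at 0.63, 0.554 and 0.573, and Jeotgalicoccus had unclassified Hungateiclostridiaceae (0.69), Prevotellaceae_NK3B31_group (0.634) and Lactobacillus (0.6). That order rested on WT mouse 1: with it left out, unclassified Hungateiclostridiaceae had 0.817 with Staphylococcus and 0.935 with Corynebacterium, above the values of these genera with the other members, and 0.831 with Jeotgalicoccus. These values are descriptions over libraries of equal total.

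Other genera that grow with oxygen were few. Of 29 on a list, 6 were present and 2 could be tested. Lactobacillus, Gram-positive lactic acid rods, had a mean share of 12.1% in WT and 1.87% in WT+DSS mice. With DSS in WT mice it was lower (log2 fold change -2.69, SE 0.95, edgeR adjusted p = 0.0361, and 0.0669 with median-ratio size factors). It was 1 of the 2 tested, beside 25 of 122 genus-level groups called lower (20.5%), too few to read as a result about the list. Neither Lactobacillus nor Streptococcus, Gram-positive cocci with 72 counts in all, passed in the other comparisons. Enterococcus had 16 counts in 2 mice, 7 in WT+DSS and 9 in MERTK-KO+DSS.

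Genera often found in reagents had low counts. Of 20 listed, 5 were present and 4 could be tested. Pseudomonas had 17 counts in WT+DSS and 18 in MERTK-KO+DSS mice and none on water. It passed the filter only through mice on DSS, so no test of it is given. Ralstonia went the other way, with 5 counts in WT and 8 in MERTK-KO mice on water and none on DSS. Sphingomonas had 13 counts in MERTK-KO mice on water, 1 in WT+DSS and 5 in MERTK-KO+DSS mice. Neither Ralstonia nor Sphingomonas passed in any comparison. Methylobacterium-Methylorubrum, which did not pass the filter, had 11 counts, all in MERTK-KO+DSS mice. Acinetobacter had 27 counts, all in 3 MERTK-KO+DSS mice, through which alone it passed the filter, so no test of it is given. Escherichia-Shigella had 2053 counts in the 4 MERTK-KO+DSS mice together. The part of reagent sequences in its result was not tested.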

How the data were processed

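The deposited table held 16S counts of 1901 ASVs in 16 libraries, which the authors brought to 96469 counts each, the table's title calling it even. Not given in the sources used here were the depth before that step, the 16S region, the tool that called ASVs and the reference used for names. The paired-end reads were 250 bp, per the labels. The labels' protocols describe an mRNA library from total RNA and name mouse genome builds, which do not describe a 16S table, so whether DNA or RNA was amplified is also not given. Totals being equal, depth does not separate the libraries.

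Counts were summed to 146 genus-level groups, with ASVs without a genus name under their lowest named rank; 58.6% of counts had a genus name. Groups and ASVs with at least 10 counts in all and a count in at least 3 libraries were tested, 122 and 1056, which kept all 4 genera and 8 of their 12 ASVs. Whole tables were fitted with edgeR 4.0.16 in R 4.3.3 (glmQLFit with robust, glmQLFTest, 1 mean per group of 4, library total as the scaling), with Benjamini-Hochberg adjustment over all features and a threshold of 0.05, and checked on simulated data. Shares were also compared by exact two-sided permutation over the 70 arrangements of 4 against 4 mice (scipy 1.17.1). A fold is a ratio of mean shares; against a group at 0 it is a lower bound at 3 counts per library. A lower mean above 0 and under 3 counts gets no fold. No interaction is given for genera with an empty group. Dispersion is estimated across mice, which the labels name as individuals. Alternatives were limma 3.58.1 on centred log-ratios, DESeq2 1.42.0, other scalings and filters, the replicate block, the 2 groups alone, counts under 5 set to 0, and each mouse left out.

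ASVs with at least 10 counts are named, with the 3 most alike groups per genus among those with a group mean of 0.01% or more. The members, lists and tests were chosen with earlier results of these data known.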

Additional observations from a re-analysis of the deposited data

Results flagged for a closer look

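Of 18 sets of 4 mice screened for a mouse far from the other 3, 6 had one. Chance gives about 5% for normally distributed values, but these counts are skewed and hold zeros, so that share is no measure of an excess here. The measure was the gap to the nearest mouse over the range of the set, set against Dixon's 95% critical value. In WT mice on water, mouse 1 was far above the others for Jeotgalicoccus (55 counts, 0.909) and Corynebacterium (211 counts, 0.898). The same mouse was far above the others for ASV365 (470 counts, 0.856), ASV1235 (15 counts, 0.867) and ASV1249 (22 counts, 1). WT mouse 3 was far above for Escherichia-Shigella (49 counts, 0.911). These sets are not independent, because ASVs add up to genera and 5 of the 6 concern the same library.

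The DSS contrast of Escherichia-Shigella differed between the genotypes in the interaction test (edgeR adjusted p = 0.0291).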

How the results depend on the processing

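Of 12 genus results, 10 kept their direction and side of the threshold under every alternative that left no mouse out. These 10 include the results of Jeotgalicoccus and Corynebacterium, which passed the main filter only through the WT mice on water. The interaction of Escherichia-Shigella had adjusted p = 0.0513 by limma on centred log-ratios with a pseudocount of 0.5, 0.0507 with the replicate block and 0.0714 with counts under 5 set to 0. MERTK-KO against WT on water turned sign for Escherichia-Shigella on centred log-ratios (limma adjusted p = 0.773 and 0.701 with pseudocounts of 0.5 and 1), and for ASV156 with edgeR and TMM scaling (0.966) and centred log-ratios at pseudocount 1 (0.965); neither was past the threshold in any fit, and the cause was not tested. Same-numbered mice had deviations that correlated at -0.185 to 0.19 (24 pairs, 4 above 0.1). Other pairs of different groups had -0.32 to 0.255 (72 pairs, 19 above 0.1), so these values showed no pairing by number. Whether same-numbered mice shared a cage, litter or batch was not tested. The block changed no other call of the 4 genera, but with it Lactobacillus with DSS in WT mice (edgeR adjusted p = 0.0668) did not pass, nor did 7 of 12 ASV calls. Over all alternatives that left no mouse out, 150 of 185 ASV values kept direction and side. With each mouse left out, adjusted p ran over 0.0178 to 0.135 for the interaction, 0.384 to 0.989 for Escherichia-Shigella on water, 0.022 to 0.0716 for Staphylococcus on water, and 0.374 to 1 for ASV156 on water. The permutation p was 0.0571, the smallest that 4 against 3 mice allow, in 8 of 8 such sets for each result at 0.0286, and ran over 0.0571 to 1 for Escherichia-Shigella with DSS in WT mice, 0.343 to 0.971 for it on water and 0.0571 to 0.286 for Staphylococcus with DSS in MERTK-KO mice. A filter of 6 libraries removed Corynebacterium.

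Counts of called features moved by over 1.5 times as follows. Genus interactions rose from 11 to 27 on centred log-ratios (both pseudocounts) and ran over 7 to 19 with a mouse left out. For ASVs, DSS in WT mice went from 178 to 314 and 312 on centred log-ratios, 116 with the filter of 6 libraries, 81 with the block and 114 to 186 with a mouse left out. That filter left 598 of 1056 ASVs to test, so a lower count with it, here and below, is not a lower share called. DSS in MERTK-KO mice went from 141 to 296 and 297, and 88 to 147 with a mouse left out. MERTK-KO against WT went from 558 to 357 with the filter and 368 with the block on water, and from 398 to 231 with the block on DSS. ASV interactions went from 59 to 131 with DESeq2, and 299 and 301 on centred log-ratios. Scaling moved the split of higher to lower genus calls: on water by genotype 17 to 32, 8 to 31 with TMM and 33 to 27 on centred log-ratios (pseudocount 0.5), whose median was shifted by 0.91 log2, and for DSS in WT mice 14 to 25 and 23 to 27 (pseudocount 1). Shares under 0.00311% lay under the limit of 3 counts chosen here, although counts of 1 and 2 were recorded in some libraries.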

Other observations

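Added up over the 4 genera, the mean share was 0.64% ± 0.677 (SD, n = 4) in WT mice on water, 0.0269% ± 0.00693 in WT+DSS, 0.0391% ± 0.0197 in MERTK-KO on water and 0.532% ± 0.0838 in MERTK-KO+DSS mice. Without WT mouse 1, which had 1.64%, the sum in WT mice on water was 0.306% (0.178% to 0.451%). Staphylococcus held most of the sum in each WT mouse on water and Escherichia-Shigella all of it in each MERTK-KO+DSS mouse.

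Actinobacteriota, the phylum of Corynebacterium, had a mean share of 0.69% in WT, 0.503% in WT+DSS, 0.888% in MERTK-KO and 0.093% in MERTK-KO+DSS mice; Corynebacterium had no count in the last 2 groups. Bacilli, the class of Staphylococcus and Jeotgalicoccus, had 13.6% in WT and 4.9% to 7.45% in the other groups.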
